A study of Mus musculus with 2 samples.

Results

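Oxidative phosphorylation (OXPHOS) makes most of the ATP of a beating heart cell. Complexes I to IV pass electrons from NADH and succinate to oxygen. Complexes I, III and IV pump protons across the inner mitochondrial membrane, and complex V, the ATP synthase, makes ATP as the protons flow back. All of complex II and most subunits of the other complexes are encoded in the nucleus, while a core set of subunits of complexes I, III, IV and V is encoded and transcribed inside the mitochondrion. Several complex IV subunits exist as a heart and skeletal muscle form and a form found in most tissues, and the heart is among the tissues richest in mitochondria.

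The genes described here were chosen by symbol: nuclear genes whose names begin with Nduf, Uqcr, Cox4 to Cox8 or Atp5, the genes Sdha to Sdhd, and the protein-coding genes of the mitochondrial genome. These were 106 of 27999 features, 93 of them nuclear and 13 mitochondrially encoded. Whole hearts of C57BL6+ICR mice at postnatal day 0 (P0) had been dissociated with trypsin and profiled as single cells with the 10x Chromium 3' version 2 chemistry. There was 1 group and 1 biological sample, loaded as technical replicates 1 and 2, and the labels do not say how many hearts were pooled. With 1 biological sample there is no test between animals: values are given for each technical replicate, intervals are exact at 95% and cover counting error only, and no p-value is given. The study was set up to make a reference map of newborn heart cells, and it implies comparisons between the cell types of that map.

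Technical replicate 1 held 5888 barcodes and 34668956 counts, and technical replicate 2 held 6047 barcodes and 33871582 counts. Barcodes with at least 500 genes and under 0.5% of counts from globin genes were kept, which left 4596 and 4005 barcodes. Cells were gated by marker genes, none of which is an OXPHOS gene. Of the kept barcodes, 8252 took 1 class, among them 5502 cardiomyocytes (2974 and 2528 in replicates 1 and 2) and 1176 fibroblasts (619 and 557). The other compared classes were vascular endothelium (656 cells), endocardium, the inner lining of the chambers (212), pericytes, which wrap small vessels (270), vascular smooth muscle (242) and macrophages (151). All 10 cardiomyocyte markers, among them the troponin Tnnt2 and the myosin Myh6, reached 20 CPM, counts per 1e6 counts, in the cardiomyocyte class, as did all 10 fibroblast markers in the fibroblast class. Summed over the 10, cardiomyocyte markers stood at 35254 CPM in cardiomyocytes and between 809.7 and 1579 CPM in the other compared classes. The same markers set the gates, so this separation was fixed in advance. Cardiomyocytes needed at least 1% of counts outside mitochondrial and globin genes from them, and every other class under 0.5%. None of the 10 was at 0 in any of the other compared classes. The part of RNA from cardiomyocytes in the other classes' values was not tested, and values with a library-wide profile scaled to these markers subtracted are given where they move a result. The libraries shared 53 barcodes, 29 of them given a class in both.

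Nuclear genes are given as CPM of nuclear counts, which here means all counts outside mitochondrial and globin genes, so that the large mitochondrial share of cardiomyocytes does not lower every other gene. Mitochondrially encoded genes are given as a share of all counts. The libraries count the 3' ends of transcripts, so values are not divided by gene length, and levels of different genes are set side by side only within pairs of isoforms. Genes with near-identical copies, including nuclear copies of mitochondrial genes, may have exchanged reads, and their single values are uncertain.

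The OXPHOS genes of both genomes were far more abundant in cardiomyocytes than in any other class, and over all kept barcodes the mitochondrial part differed by more than the nuclear part. The 93 nuclear genes together made up 13.2% and 13.3% of nuclear counts in cardiomyocytes in technical replicates 1 and 2, against 2.97% and 3.09% in fibroblasts. The summed ratio of cardiomyocytes over fibroblasts was 4.37 (interval 4.35 to 4.39, with 4.43 and 4.30 in the replicates). The 13 mitochondrial genes made up 35.3% and 35.6% of all counts in cardiomyocytes, against 3.50% and 3.83% in fibroblasts, a ratio of 9.69 (interval 9.65 to 9.73, with 10.1 and 9.31). With the scaled library profile subtracted from fibroblasts the mitochondrial ratio was 17.4 and the nuclear 4.86. Among barcodes under 20% mitochondrial counts the mitochondrial ratio was 3.71, below the nuclear one of 4.22, but that limit itself bounds the share. These 2 ratios also rest on different totals, all counts and nuclear counts. The chamber mix differed as well, with 574 atrial and 418 ventricular cells under that limit, against 1373 and 3725 in the whole class. No class overlapped the cardiomyocytes in either measure in either replicate.

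Among the other classes the nuclear genes stood highest in pericytes, at 4.17% and 4.35% of nuclear counts, and in smooth muscle, at 3.82% and 4.22%. They took 3.36% and 3.26% in macrophages, 3.26% and 3.32% in vascular endothelium, and 2.60% and 2.57% in endocardium. Pericytes and smooth muscle overlapped across replicates, as did macrophages and vascular endothelium. The mitochondrial genes were ordered differently. Endocardium led them, at 5.33% and 5.91% of all counts, followed by smooth muscle (4.54% and 4.48%), vascular endothelium (4.61% and 4.30%), pericytes (4.25% and 3.75%), macrophages (3.46% and 4.00%) and fibroblasts. The last 5 of these classes overlapped with a neighbour in that order across replicates. The order also moved when the scaled library profile was subtracted: endocardium still led at 4.40%, followed by vascular endothelium at 3.23%, while pericytes stood at 2.07%, fibroblasts at 2.04%, smooth muscle at 1.98% and macrophages at 1.82%.

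Dividing one part by the other put the endocardium apart from the other non-muscle classes. Cardiomyocytes held 4.14 and 4.18 mitochondrial counts for each nuclear OXPHOS count. Endocardium held 2.16 and 2.45, above vascular endothelium (1.49 and 1.35), fibroblasts (1.22 and 1.29), smooth muscle (1.25 and 1.11), macrophages (1.07 and 1.28) and pericytes (1.07 and 0.896). The endocardial nuclear share was the lowest of the 7 classes and its mitochondrial share the highest outside cardiomyocytes. With the same subtraction, the endocardial value was 1.99, vascular endothelium stood at 1.09, and fibroblasts, pericytes, smooth muscle and macrophages lay between 0.531 and 0.764. The endocardium class also held 1510 CPM of fibroblast markers and 1970 CPM of smooth muscle markers. Vascular endothelium held 213 and 195 CPM of these, and pericytes 2083 and 3427 CPM. The part of other cell types in the endocardial values was not tested.

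**Figure D1:**
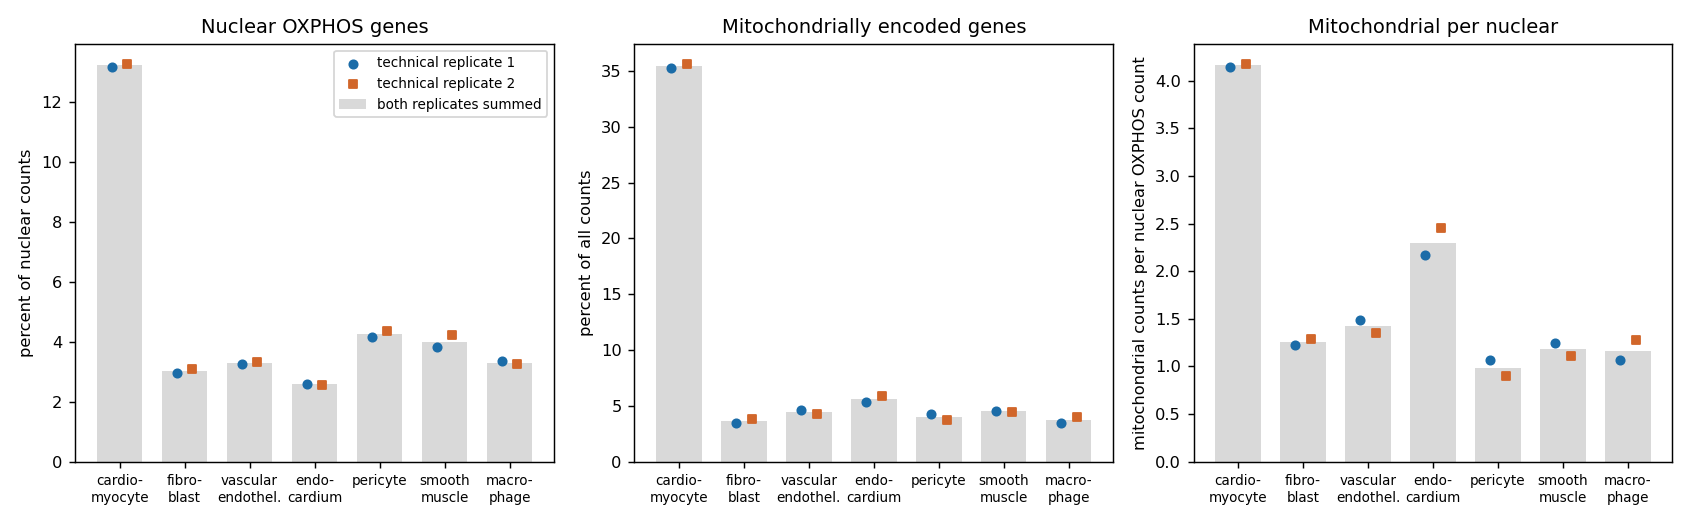
Summed counts of the 93 nuclear OXPHOS genes as a percentage of nuclear counts (left), of the 13 mitochondrially encoded genes as a percentage of all counts (middle), and mitochondrial counts per nuclear OXPHOS count (right), in 7 gated cell classes. Grey bars are both technical replicates summed and points are the single replicates. Cardiomyocytes stood at 13.2%, 35.5% and 4.16, and endocardium, at 2.30, was the next highest class in the right panel.

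Taken gene by gene, the difference between cardiomyocytes and fibroblasts reached nearly every subunit. A gene was called when it differed at least 2-fold in both technical replicates and had at least 20 counts in at least one class in each. Of the 93 nuclear genes, 91 had enough counts, and 79 of them were called higher in cardiomyocytes, where 20.1% of 11817 genes tested met the same call. Only 2 were called lower, Cox4i2 and Ndufa4l2, against 20.3% of all genes tested, and 10 were neither. The median ratio was 3.84, against 0.968 over all genes tested. The 2 genes left untested were Cox7b2, known from testis, with 8 counts in cardiomyocytes and 0 in every other compared class, and Cox8c, with 0 counts in cardiomyocytes.

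The other classes gave much the same count of subunits. Cardiomyocytes were called higher than vascular endothelium for 79 of 91 genes (background 23.0% higher and 20.8% lower) and higher than endocardium for 81 of 90 (17.4% and 19.6%). They were higher than smooth muscle for 72 of 91 (18.5% and 14.0%) and higher than macrophages for 78 of 90 (31.7% and 14.0%). Pericytes gave the lowest count, 66 of 91 (19.8% and 18.0%). The median ratios were 3.60 over vascular endothelium, 4.81 over endocardium, 2.80 over pericytes, 2.95 over smooth muscle and 3.45 over macrophages. All 6 comparisons share the cardiomyocytes, so their counts are not independent of each other.

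A stricter rule asked for a level at least 2-fold above every other compared class in both replicates. Of 90 members with enough counts in cardiomyocytes, 64 passed there, where 8.11% of all genes did. In pericytes 2 of 85 passed, Cox4i2 and Ndufa4l2, against 1.91% of all genes. No member passed in fibroblasts, vascular endothelium, endocardium, smooth muscle or macrophages, where 1.63%, 1.98%, 3.27%, 1.80% and 14.0% of all genes passed.

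Complex I, the NADH dehydrogenase that takes electrons from NADH, had the smallest summed ratio among the 5 complexes, 3.50 over fibroblasts (3.56 and 3.43), with 35 of 36 nuclear subunits called higher. Ndufs1, its large iron-sulphur core subunit, stood at 245.3 and 255 CPM in cardiomyocytes and at 36.0 and 32.9 CPM in fibroblasts, a ratio of 7.25 (interval 6.35 to 8.30). The accessory subunits Ndufb9 and Ndufc1 followed, with ratios of 5.33 and 4.76. At the other end stood Ndufc2 at 2.15 and Ndufs8, another iron-sulphur core subunit, at 2.01. Ndufs8 had 263 and 282 CPM in cardiomyocytes against 126 and 145 CPM in fibroblasts, and was the one subunit not called, since its ratio in replicate 2 was 1.94.

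Complex II, succinate dehydrogenase, which is also an enzyme of the citric acid cycle, had a summed ratio of 4.50 with 4 of 4 genes called. Its flavoprotein subunit Sdha stood at 887 and 879 CPM in cardiomyocytes, against 83.5 and 103 CPM in fibroblasts, so that the ratio was 9.49 (interval 8.76 to 10.3). The 2 membrane anchors Sdhd and Sdhc had ratios of 4.63 and 4.32, and the iron-sulphur subunit Sdhb 2.59. The interval of the catalytic Sdha lay above those of the other subunits and that of its partner Sdhb, 2.46 to 2.73, below them, while the intervals of the 2 anchors overlapped.

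Complex III, which hands electrons from ubiquinol to cytochrome c, had the largest summed ratio of the 5 over fibroblasts, at 5.33 (5.45 and 5.19), with 8 of 8 genes called. It also led over pericytes, smooth muscle and macrophages. Over vascular endothelium its 4.51 was below complex II (4.87) and level with complex IV (4.52). Over endocardium its 5.61 was below complexes IV (5.95) and II (5.89). The small complex III subunits Uqcr11, Uqcrq and Uqcr10 led, with ratios over fibroblasts of 8.17, 6.37 and 6.01. Uqcr11 stood at 4121 and 4089.5 CPM in cardiomyocytes, against 480.4 and 526 CPM in fibroblasts. The smallest ratios were those of Uqcrb, at 3.84, and the core subunit Uqcrc1, at 3.78.

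Complex IV, cytochrome c oxidase, reduces oxygen to water. It had a summed ratio of 5.00 and by far the widest spread, with 13 of 17 genes called higher, 2 called lower and 2 neither. The spread came from its isoform pairs, described below: Cox6a2, Cox8b and Cox7a1 had the largest ratios of all members, and Ndufa4l2 and Cox4i2 the smallest. Other subunits of the complex lay closer together. Cox5a stood at 8.71 times its fibroblast level and Cox5b at 4.51 times, Cox6c at 5.36 times, Cox7b at 5.56 times and Cox7c at 4.77 times.

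Complex V had a summed ratio of 4.53 with 15 of 16 genes called. The alpha subunit Atp5a1, which forms the enzyme's head together with the catalytic beta subunit, stood at 2698 and 2609 CPM in cardiomyocytes, against 365 and 399 CPM in fibroblasts, a ratio of 6.96. The membrane rotor of the enzyme is a ring of identical c subunits, which 3 nuclear genes encode with the same mature protein. Atp5g3 and Atp5g1 had the largest ratios of the complex, 9.02 and 7.10, and Atp5g2 the smallest, 1.99 (interval 1.92 to 2.07), which was not called. Next above it was the delta subunit Atp5d at 3.05. Atp5g2 stood at 1031 and 1018 CPM in cardiomyocytes, against 500.3 and 530.1 CPM in fibroblasts. Of Atp5g1 and Atp5g2 together, Atp5g1 gave 80.5% of counts in cardiomyocytes and between 43.5% and 54.2% in the other compared classes.

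The assembly and accessory factors, most of which help build the complexes without being part of them, differed least. Their summed ratio was 1.81, with 4 of 10 called higher, 6 neither and none lower at the same call. Ndufaf5, which modifies a complex I subunit, led with a ratio of 4.49 (interval 3.70 to 5.50), followed by Ndufaf4 at 3.39 and Atp5s at 2.33. Ndufaf7 stood at 1.00 and Ndufaf2 at 0.846, with 57.4 and 53.1 CPM of Ndufaf2 in cardiomyocytes against 74.9 and 55.2 CPM in fibroblasts. The closest genes not called were Cox6a1 (1.83), Ndufaf3 (1.84), Atp5g2 (1.99), Ndufs8 (2.01) and Ndufaf8 (2.07), each of which was under 2-fold in at least one replicate. Ndufc2 (2.15), Ndufaf1 (2.16) and Ndufs5 (2.23) were the closest genes called.

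**Figure D2:**
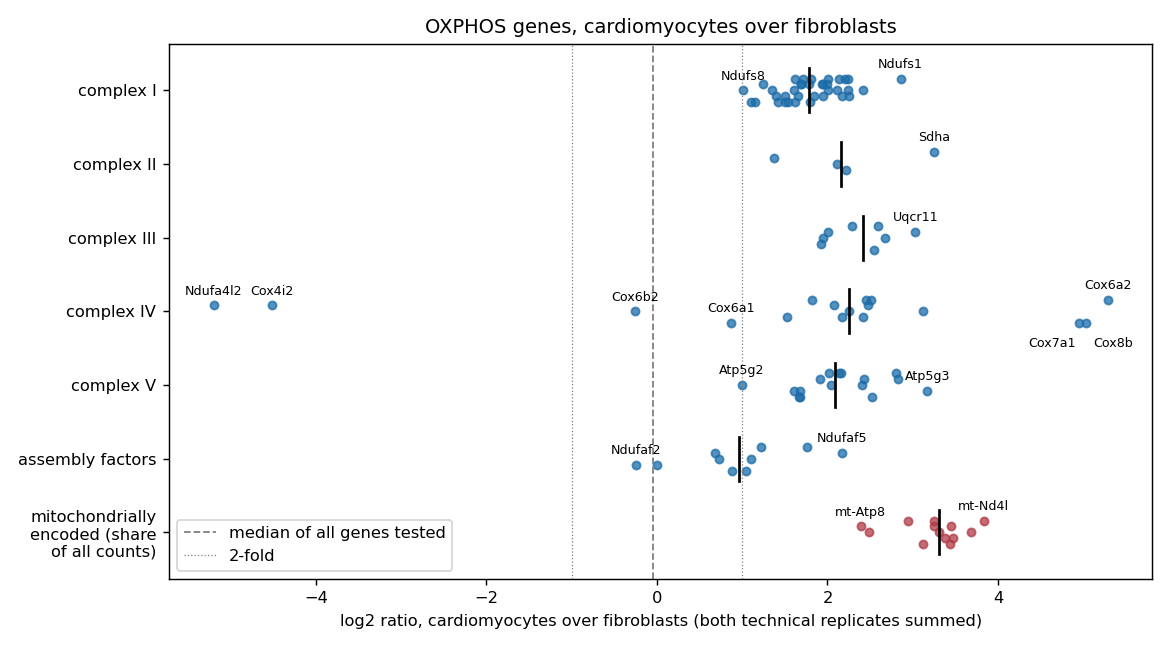
Log2 ratio of cardiomyocytes over fibroblasts for each OXPHOS gene, by complex, with both technical replicates summed. Each point is a gene, black bars are medians, the dashed line is the median of all genes tested and dotted lines mark 2-fold. Nuclear genes are on the scale of nuclear counts and mitochondrial genes on that of all counts. Complex IV runs from Ndufa4l2 and Cox4i2 at the left to Cox7a1, Cox8b and Cox6a2 at the right, and the assembly factors sit closest to the median of all genes.

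All 13 mitochondrially encoded genes had a larger share of all counts in cardiomyocytes than in fibroblasts in both technical replicates, with ratios from 5.24 to 14.3. Among the genes with the most counts, mt-Co1, the catalytic subunit of complex IV, took 69879 of every 1e6 counts in cardiomyocytes and 5457 in fibroblasts, a ratio of 12.8 (13.3 and 12.3). mt-Co2 had a ratio of 11.1, mt-Nd4 10.8, mt-Nd1 9.53, mt-Cytb of complex III 9.48, mt-Co3 8.67 and mt-Atp6 of complex V 7.72. The order of these 7 was the same in both replicates except for mt-Nd1 and mt-Cytb, which changed places, with 9.95 and 10.0 in replicate 1 and 9.13 and 8.998 in replicate 2. The transcripts of this one genome thus did not differ by a single factor. The remaining complex I genes were mt-Nd5 at 10.9, mt-Nd3 at 10.4 and mt-Nd2 at 9.90. The extremes were genes with few counts, mt-Nd4l at 14.3, mt-Nd6 at 5.59 and mt-Atp8 at 5.24. mt-Nd4l and mt-Atp8 overlap mt-Nd4 and mt-Atp6 on the same strand, so reads may have been divided between these neighbours. mt-Nd6 lies beside mt-Nd5 but on the opposite strand.

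Cox6a2, Cox7a1 and Cox8b encode the heart and skeletal muscle forms, and Cox6a1, Cox7a2 and Cox8a the forms found in most tissues. Cox6a2 made up 74.0% of the counts of its pair in cardiomyocytes in both replicates. Cox8b made up 45.6% and 41.1% of its pair, and Cox7a1 27.5% and 25.0%. At birth, then, the muscle form was the major one by counts for Cox6a but not for Cox8 or Cox7a, and the 3 shares did not overlap. The difference between replicates was larger than the counting intervals for Cox8b and Cox7a1 and not for Cox6a2.

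Cox6a2 (chromosome 7, 128205435 to 128206387, minus strand, GRCm38) stood at 3116 and 3350.1 CPM in cardiomyocytes, against 77.2 and 88.5 CPM in fibroblasts, a ratio of 39.1 (interval 35.9 to 42.5). Cox8b (chromosome 7, 140898945 to 140900446, minus strand) stood at 2210.1 and 1887 CPM in cardiomyocytes, against 65.1 and 60.8 CPM in fibroblasts, a ratio of 32.6 (29.6 to 36.0). Cox7a1 (chromosome 7, 30184144 to 30186078, plus strand) stood at 1148 and 1033 CPM in cardiomyocytes, against 32.0 and 39.1 CPM in fibroblasts, a ratio of 30.9 (27.2 to 35.3). Their general partners differed much less. Cox7a2 had a ratio of 5.47, Cox8a 2.88 and Cox6a1 1.83, with 1093 and 1178 CPM of Cox6a1 in cardiomyocytes against 615 and 622 CPM in fibroblasts. Cox6a1 was also the general form with the smallest step down to the next class, 1.11 times its level in smooth muscle (interval 1.05 to 1.18).

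The windows upstream of these genes are shown because the muscle and general forms of 2 of the pairs differed in base composition there. Each is the RefSeq window from 250 bases before to 50 bases after the annotated start, on the gene's own strand (GRCm38.p6). Capitals mark matches, on either strand, to 3 motifs searched: YY1 (AAGATGGC), the ETS core bound by GABP (CCGGAAG) and the TATA box (TATAAA). Windows were found for 74 of the 93 nuclear members, but none for Cox6a2, Ndufa4l2, Cox4i1 or Cox4i2.
Cox7a1, muscle form, chr7:30183921-30184220, plus strand: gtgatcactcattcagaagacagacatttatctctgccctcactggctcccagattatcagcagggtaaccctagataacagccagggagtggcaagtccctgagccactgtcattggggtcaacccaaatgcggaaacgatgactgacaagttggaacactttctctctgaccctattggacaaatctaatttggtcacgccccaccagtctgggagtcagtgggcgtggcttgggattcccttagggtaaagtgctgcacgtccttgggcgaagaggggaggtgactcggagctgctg
Cox7a2, general form, chr9:79759804-79760103, minus strand: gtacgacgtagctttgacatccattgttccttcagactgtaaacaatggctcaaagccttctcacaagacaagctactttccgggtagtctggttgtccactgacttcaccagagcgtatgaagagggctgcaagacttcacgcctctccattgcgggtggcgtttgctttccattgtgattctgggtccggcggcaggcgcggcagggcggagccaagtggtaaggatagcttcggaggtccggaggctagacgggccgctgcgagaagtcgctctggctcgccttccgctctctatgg
Cox8b, muscle form, chr7:140900397-140900696, minus strand: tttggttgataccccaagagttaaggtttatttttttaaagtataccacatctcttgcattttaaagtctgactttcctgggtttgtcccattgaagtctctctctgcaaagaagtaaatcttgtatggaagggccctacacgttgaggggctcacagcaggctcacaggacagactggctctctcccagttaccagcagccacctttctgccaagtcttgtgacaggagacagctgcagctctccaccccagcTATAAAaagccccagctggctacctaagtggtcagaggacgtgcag
Cox8a, general form, chr19:7217567-7217866, minus strand: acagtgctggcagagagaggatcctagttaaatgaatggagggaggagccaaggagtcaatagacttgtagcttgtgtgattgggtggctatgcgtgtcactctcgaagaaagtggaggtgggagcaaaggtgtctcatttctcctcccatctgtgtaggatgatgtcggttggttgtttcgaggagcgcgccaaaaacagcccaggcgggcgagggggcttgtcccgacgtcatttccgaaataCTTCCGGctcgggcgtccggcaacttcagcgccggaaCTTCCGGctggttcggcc

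The Cox8b window held 2 CpG dinucleotides and a TATA match, and the Cox8a window 19 CpGs and 2 ETS matches. The Cox7a1 window held 7 CpGs and the Cox7a2 window 20, with no match to the 3 motifs in either. No member with a window had fewer CpGs than Cox8b, and 2 had fewer than Cox7a1. The median was 19.5 over members and 8 over all genes with a window. Among members, 18 of 74 held the ETS core (24.3%, against 9.93% of all 27025 genes with windows), 10 held YY1 (13.5% against 3.19%) and 7 held the TATA box (9.46% against 15.7%). Matches of these motifs overlapped in 376 of 32851 windows. A match is only the presence of these letters, and no binding was measured.

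In the other classes the muscle forms were present at low levels, beside cardiomyocyte markers. Cox6a2 made up between 5.88% and 13.2% of its pair there, Cox7a1 between 3.96% and 7.61% and Cox8b between 3.61% and 6.37%. For each 100 counts of the 10 cardiomyocyte markers, Cox6a2 had 9.15 counts in cardiomyocytes, against 9.18 in macrophages, 8.92 in vascular endothelium, 8.25 in fibroblasts, 7.44 in endocardium, 6.58 in pericytes and 4.03 in smooth muscle. The cardiomyocyte interval was 9.08 to 9.22, and those of fibroblasts (7.55 to 8.996), endocardium (6.06 to 9.04), pericytes (5.27 to 8.13) and smooth muscle (3.14 to 5.11) lay below it. Smooth muscle had the lowest value, and it also shares the marker Actc1 with cardiomyocytes. Without Actc1 the Cox6a2 values were still 11.7 in cardiomyocytes and 4.72 in smooth muscle. The other muscle forms differed from this. Cox7a1 had 3.10 counts in cardiomyocytes and from 2.41 (smooth muscle) to 3.90 (macrophages) elsewhere. No interval lay below the cardiomyocyte one (3.06 to 3.14), and that of vascular endothelium (3.22 to 4.21) lay above it. Cox8b had 5.84 in cardiomyocytes and from 3.98 (smooth muscle) to 6.82 (endocardium) elsewhere, and only the smooth muscle interval lay below. With the scaled library profile subtracted, Cox6a2 fell to between 0 and 2.19 CPM, Cox7a1 to between 0 and 9.85 CPM and Cox8b to between 0 and 9.93 CPM in the 6 other classes.

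Counted by cells, the muscle forms were found in most cardiomyocytes and few fibroblasts, a narrower contrast than by level. With each cell thinned to 2000 nuclear counts, 98.2% of cardiomyocytes had a Cox6a2 count, against 15.2% of fibroblasts. Cox8b was found in 95.6% of cardiomyocytes and 14.5% of fibroblasts, and Cox7a1 in 84.4% and 7.36%. The thinning left out 909 cardiomyocytes and 34 fibroblasts with fewer counts. Before thinning, at medians of 3805 and 5400.0 nuclear counts, 98.7% of cardiomyocytes and 36.0% of fibroblasts had a Cox6a2 count. The fibroblast shares stand beside the cardiomyocyte markers given above, and their source was not tested.

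**Figure D3:**
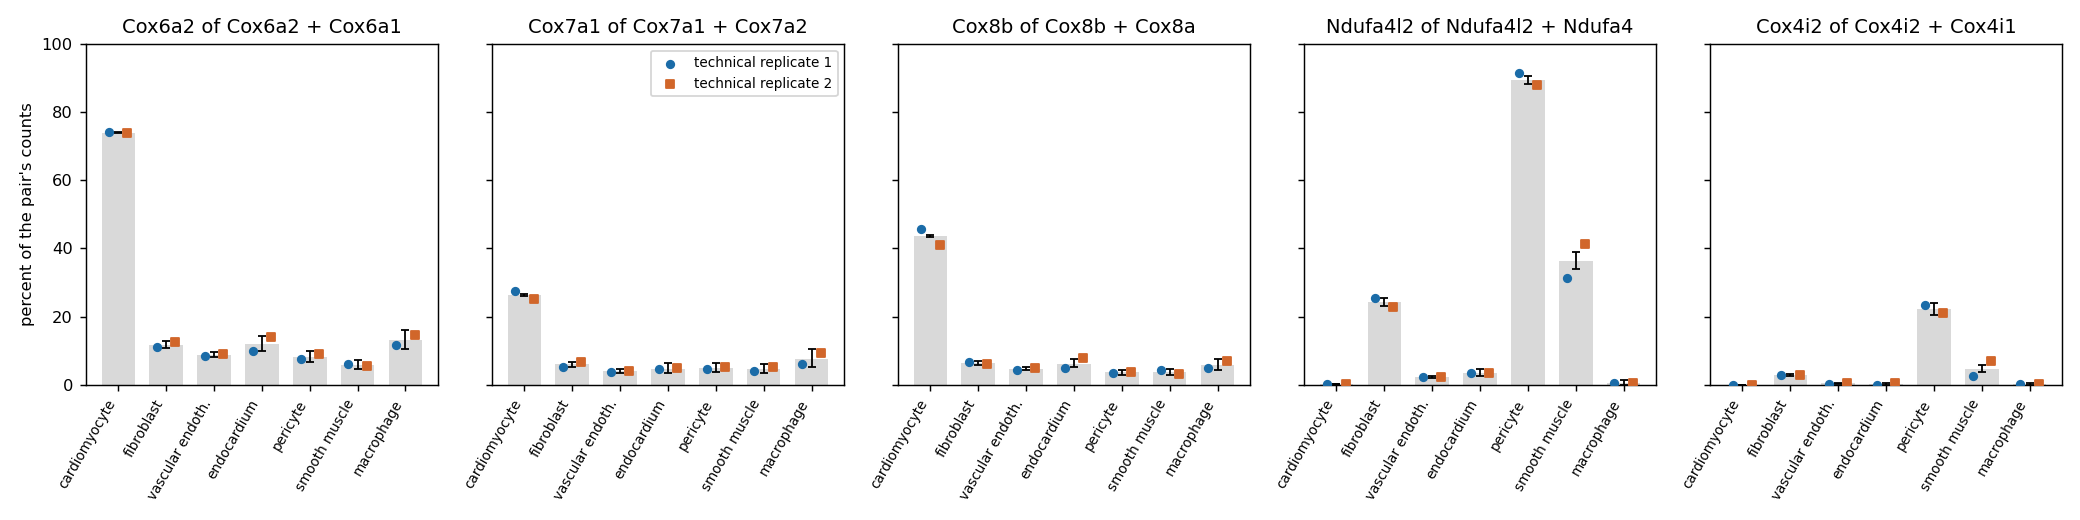
Share of the first gene in the summed counts of 5 isoform pairs, in percent, by cell class. Grey bars are both technical replicates summed with exact 95% intervals for counting error, and points are the single replicates. Cox6a2, Cox7a1 and Cox8b stood highest in cardiomyocytes, at 74.0%, 26.4% and 43.5%, while Ndufa4l2 and Cox4i2 stood highest in pericytes, at 89.6% and 22.2%.

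Pericytes differed from the other classes in the balance of the Ndufa4 pair and, less, of the Cox4i pair. Ndufa4 is a subunit of complex IV despite its name, and Ndufa4l2 is a related gene known to respond to low oxygen. Ndufa4l2 (chromosome 10, 127514967 to 127517154, plus strand) stood at 2033 and 2116 CPM in pericytes, against 331 and 576 CPM in smooth muscle, 200.2 and 190.0 CPM in fibroblasts and 5.62 and 4.98 CPM in cardiomyocytes. It was 4.69 times as high in pericytes as in smooth muscle, the next class (interval 4.26 to 5.18, with 6.15 and 3.67 in the replicates). Ndufa4l2 made up 89.6% of the counts of the pair in pericytes, 36.5% in smooth muscle, 24.2% in fibroblasts and 0.153% in cardiomyocytes. Vascular endothelium, endocardium and macrophages lay between 0.433% and 3.47%.

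Ndufa4 itself was lowest in pericytes, at 193 and 291 CPM, against 589 CPM in fibroblasts in replicate 1 and 596 CPM in macrophages in replicate 2, the next lowest classes. That is 0.327 and 0.488 times the next lowest level. With the scaled library profile subtracted, Ndufa4 stood at 114 CPM in pericytes. By the mirror image of the stricter rule, at most 1 part in 2 of every other class in both replicates, Ndufa4 was the one member of 77 tested that passed in pericytes, where 0.206% of 1938 genes did. This rule was added after the value had been seen. With each cell thinned to 2000 nuclear counts, 162 of 261 pericytes had Ndufa4l2 and no Ndufa4, 86 had both, 4 had Ndufa4 alone and 9 neither. Of cardiomyocytes treated the same way, 4519 of 4593 had Ndufa4 alone and 44 both. In fibroblasts, Ndufa4 was found in 70.6% of cells with Ndufa4l2 and in 69.1% of cells without it, and in smooth muscle in 70.4% and 72.4%.

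Cox4i2, the second form of the complex IV subunit 4, is known from lung and vessel wall. It stood at 483 and 441 CPM in pericytes, against 42.1 and 125 CPM in smooth muscle, 36.6 and 35.1 CPM in fibroblasts and 1.32 and 1.84 CPM in cardiomyocytes (chromosome 2, 152754173 to 152765037, plus strand). It made up 22.2% of the counts of Cox4i1 and Cox4i2 in pericytes and 0.0372% in cardiomyocytes. The general form Cox4i1 was highest in cardiomyocytes, at 4179 and 4253 CPM, against 1593 and 1644 CPM in pericytes. The order was thus the same for Ndufa4l2 and Cox4i2, with pericytes first, then smooth muscle, then fibroblasts. For Cox4i2 the step from smooth muscle to fibroblasts was small in replicate 1, where smooth muscle held 26 counts, and rested mostly on replicate 2. The 7 pericyte markers summed to 10970.3 CPM in pericytes and 2110.0 CPM in smooth muscle, and the part of admixed pericytes in the smooth muscle values was not tested.

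The testis-linked Cox6b2 was the other subunit not led by cardiomyocytes or pericytes. It stood at 84.3 and 64.2 CPM in smooth muscle, against 32.7 and 39.3 CPM in pericytes, 27.4 and 28.2 CPM in fibroblasts and 23.0 and 23.4 CPM in cardiomyocytes. The 43 epicardial cells, too few to be compared, held 78.9 and 112 CPM. Its partner Cox6b1 was highest in cardiomyocytes and had a ratio of 4.21 over fibroblasts. Cox7a2l, a factor that joins complexes III and IV, was highest in endocardium, at 896 CPM against 796 CPM in vascular endothelium and 707 CPM in cardiomyocytes.

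Within cardiomyocytes, the levels differed by chamber type. Cells were called atrial from Sln, Myl7, Myl4, Bmp10 and Stard10, and ventricular from Myl2, Myl3, Mpped2 and Irx4, which gave 1373 atrial and 3725 ventricular cells. Nuclear OXPHOS genes took 10.3% and 10.2% of nuclear counts in atrial cells, against 14.6% and 14.9% in ventricular cells, and mitochondrial genes 21.6% and 22% of all counts against 39.4% and 40%. The median ratio of atrial over ventricular cells was 0.712 over 90 members and 1.03 over all genes tested. In both replicates, 84 of the 90 lay below 1 and 4 lay above it, where 34.0% and 43.6% of all genes did. None was called 2-fold higher and 3 were called lower, against 5.00% and 3.48% of all genes, so the count called lower was near the share of all genes.

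The 3 were Cox6b2 (0.300), Sdha (0.412) and the complex I subunit Ndufs6 (0.441). Sdha, which also stood out between cardiomyocytes and fibroblasts, had 0.413 and 0.411 times its ventricular level in the replicates. The membrane anchor Sdhd (0.541), the core subunits Uqcrc1 (0.543) and Uqcrc2 (0.565) and Ndufaf1 (0.546) followed. At the top were assembly factors, Ndufaf5 at 1.28 and Ndufaf2 at 1.15, and the highest complex subunit was Ndufa11 at 1.02. The isoforms differed less by share than by level: Cox6a2 made up 75.1% of its pair in atrial and 73.8% in ventricular cells, Cox7a1 26.2% and 26.6%, and Cox8b 38.0% and 45.8%.

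Cardiomyocytes with cell cycle genes such as Mki67 and Top2a had lower levels of the muscle forms in both chamber types. There were 242 such cells among ventricular and 92 among atrial cardiomyocytes with at least 2000 nuclear counts, set against 2860 and 1154 other cells. The share of Cox8b in its pair was 36.4% in cycling ventricular cells against 46.3% in other ventricular cells, and 23.3% against 39.2% in atrial cells. Cox6a2 made up 69.5% against 74.2% in ventricular and 64.0% against 76.0% in atrial cells, and Cox7a1 22.3% against 26.9% and 18.7% against 26.9%. All 3 shares were lower in both replicates.

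Over all members, the median ratio of cycling over other cells was 0.877 in ventricular and 0.848 in atrial cells, against 1.02 and 1.03 over all genes tested. Cox8b had the lowest ratio of all members in both, 0.625 and 0.489, and Cox6b2 the highest, 2.27 and 2.64. The Cox6b2 intervals were wide, 1.76 to 2.88 in ventricular and 1.30 to 4.98 in atrial cells. Its ventricular ratio was 1.79 and 2.83 in the replicates. Its level in cycling atrial cells was low, at 17.9 and 23.2 CPM. At the 2-fold call, 0 of 90 members were higher and 0 lower in ventricular cells, against 5.15% and 2.45% of all genes. In atrial cells 1 of 89, Cox6b2, was higher and 0 lower, against 4.33% and 2.85%. Cycling cells were deeper, with a median of 5014 nuclear counts against 4017 in ventricular and 6409 against 4501 in atrial cells, and the part of depth in these ratios was not tested.

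The mitochondrial share of single cardiomyocytes varied widely, and across cells it had almost no correlation with their nuclear OXPHOS share. The median cell had 36.6% of counts from the mitochondrial genome, with 13.9% and 55.1% at the 10th and 90th percentiles, and 81.4% of cardiomyocytes lay above 20%, against 0.765% of fibroblasts. The nuclear share had a median of 12.8%, with 8.36% and 17.7% at the same percentiles. Over 5502 cells, which share libraries and differ in depth, Pearson's r between the 2 shares was -0.00202 and Spearman's rho 0.0965, and rho between the mitochondrial share and nuclear counts was -0.426. Cells of 0 to 20%, 20 to 40%, 40 to 60% and 60 to 100% mitochondrial counts had nuclear shares of 12.8%, 12.9%, 14.1% and 13.1%.

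These pooled values mix chambers, since 418 of 3725 ventricular and 574 of 1373 atrial cells lay under 20%. Within ventricular cells the nuclear share was 16.6%, 14.6%, 14.4% and 13.6% along the 4 steps. Within atrial cells it was 10.6%, 9.92%, 10.2% and 8.03%, with 17 cells in the last step. The share of Cox8b in its pair went the other way in ventricular cells, with 40%, 41.8%, 51.0% and 56.0%, and in both replicates each step was higher than the one before. In atrial cells it was 34.3%, 41.4%, 46.6% and 39.0%, so that the last step, of 17 cells, stood below the one before. Cox6a2 moved between 71.9% and 76.1% in ventricular cells. Median nuclear counts were 3845, 4749, 3341 and 1601 along the ventricular steps, and the part of depth or cell damage in these values was not tested.

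**Figure D4:**
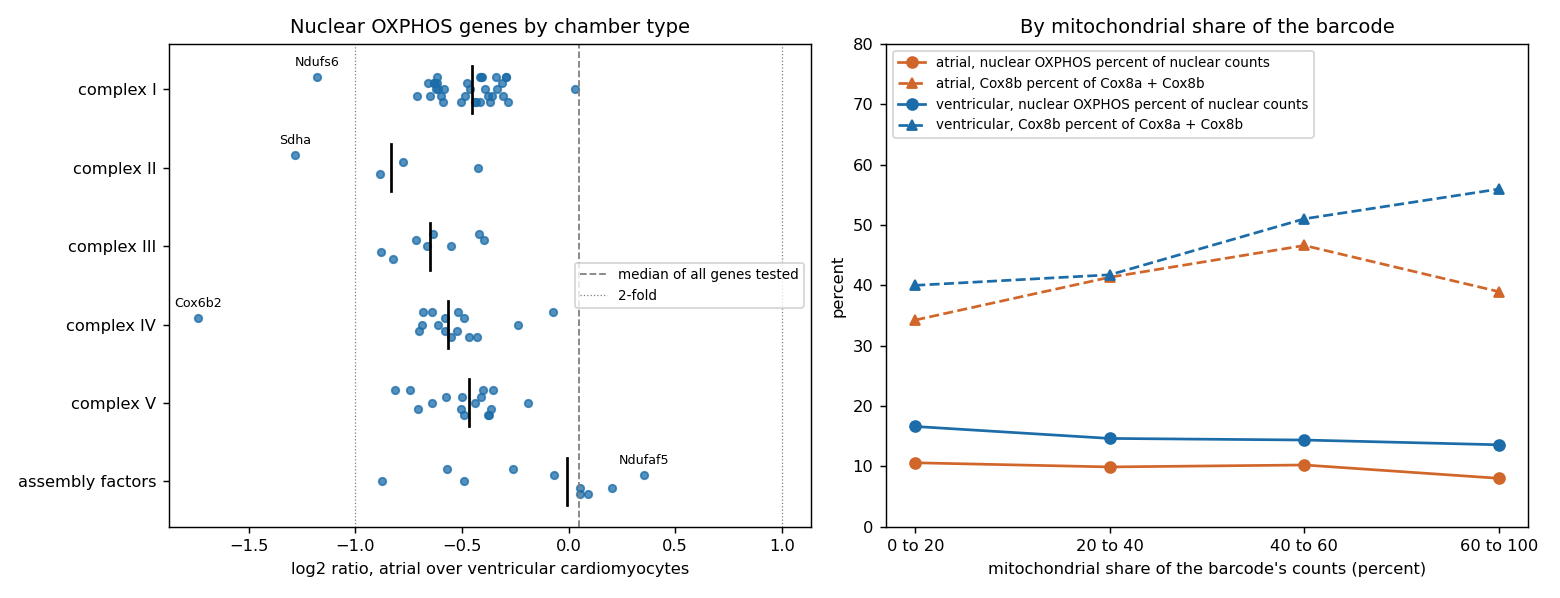
Left, log2 ratio of atrial over ventricular cardiomyocytes for nuclear OXPHOS genes by complex, where each point is a gene with both technical replicates summed, black bars are medians and the dashed line is the median of all genes tested. Right, nuclear OXPHOS genes as a percentage of nuclear counts, and the share of Cox8b in its pair, by the mitochondrial share of the barcode's counts. Cox6b2, Sdha and Ndufs6 lie beyond 2-fold, and the ventricular Cox8b share runs from 40% to 56.0%.

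Genes that work beside the complexes followed in part. Of 50 such genes, 24 were called higher in cardiomyocytes than in fibroblasts, 0 lower and 26 neither, where 20.1% of all genes tested were higher and 20.3% lower. Their median ratio was 1.97, against 0.968 over all genes tested. The highest was the mitochondrial creatine kinase Ckmt2, which passes the energy of ATP to creatine, at 53.6. The electron carrier cytochrome c (Cycs) had a ratio of 7.30 and the complex III subunit Cyc1 5.27. The genes that carry electrons from fatty acid oxidation followed, with the dehydrogenase Etfdh at 6.67 and the flavoprotein subunits Etfa at 5.43 and Etfb at 3.41. The phosphate carrier Slc25a3 stood at 4.01 and the ADP/ATP carrier of heart, Slc25a4, at 4.34, while its general form Slc25a5 stood at 1.86 and was not called.

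Assembly factors outside the gene families chosen by symbol were spread out, as within them. The copper chaperone Cox17 had a ratio of 4.59, the complex III factor Uqcc1 4.77 and the haem synthesis enzyme Cox10 3.98, but Surf1 stood at 0.550 and Cox18 at 0.561, neither past 2-fold in both replicates. Of 16 genes that copy, transcribe or process mitochondrial DNA and RNA, 3 were called higher, 0 lower and 13 neither, with a median ratio of 1.28, so the count called higher was near the 20.1% of all genes. The 3 were Lrpprc, which stabilises mitochondrial messenger RNAs, at 5.10, the helicase Supv3l1 at 2.66 and the mitochondrial RNA polymerase Polrmt at 2.64. Tfam, the main packaging protein of mitochondrial DNA, stood at 1.12.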

How the data were processed

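Both technical replicates came as gene by barcode tables of raw whole-number counts, deposited by the authors. Cell Ranger 2.1.0 and the mm10 build are named per the submitters' processing notes; the order of steps and whether the counts are molecules or reads are not given in the sources used here. No column was left unmapped (0 columns not used).

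For each class, counts of its barcodes were added up within a replicate, and no model was fitted, since the replicates are technical and come from 1 biological sample. Barcodes needed at least 500 genes and under 0.5% globin counts. Classes were gated by marker shares with at least 3 markers detected; the thresholds were set after the marker distributions, but no OXPHOS value, had been seen. The 187 barcodes of more than 1 lineage were left out as possible doublets, and no doublet caller was run; 118 fitted no lineage. Calls needed 2-fold in both replicates and at least 20 counts. Exact 95% intervals (Poisson, Clopper-Pearson or conditional binomial) cover counting error only. The members and lists were chosen with earlier results of these data known. Genes named were all mitochondrial members, the isoform families, members passing the stricter rule outside cardiomyocytes, and for each complex the 3 largest and 2 smallest ratios over fibroblasts; others, including chamber, cycling, near-threshold and partner examples, were picked with their values in view. The summing and calling steps were tested on simulated data. Alternatives covered scaling, filters, gates, subtraction of the scaled library profile and single replicates. Scripts ran in Python 3.11.15, with figures by matplotlib 3.10.9, tables by pandas 2.3.3, intervals by scipy 1.17.1 and arrays by numpy 2.4.6.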

Additional observations from a re-analysis of the deposited data

Results flagged for a closer look

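Mitochondrial counts were high in barcodes that the comparisons did not use. In the 3148 barcodes left out for globin, mitochondrially encoded genes took 35.0% of counts (34.6% and 35.2% in the technical replicates) and nuclear OXPHOS genes 8.84% of nuclear counts, with a median of 1475 nuclear counts. In the 349 kept barcodes with no class, the mitochondrial share was 15.2% and the nuclear share 5.42%. Both mitochondrial shares exceeded those of every compared class but cardiomyocytes. Cardiomyocyte markers took 1.98% of nuclear counts in the barcodes left out for globin. With the globin limit raised to 5%, barcodes gated as cardiomyocytes went from 5502 to 7662 and as fibroblasts from 1176 to 1196. The 1.98% lies above the limit on these markers for every other class, so the gates themselves favoured the cardiomyocyte class among such barcodes. Whether the added barcodes were cardiomyocytes was not tested. The causes were not tested.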

How the results depend on the processing

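Over the alternatives tried, the count of nuclear genes called higher in cardiomyocytes than in fibroblasts lay between 66 and 83, against 79. Neither the median log2 ratio nor that of any called gene changed direction. Genes not called were not checked for a change of direction. The median log2 ratio of 1.94 became 1.36 when counts were scaled to all counts, where the median of all genes was -0.62, and 2.00 with median-of-ratios scaling. It was 2.07 with the scaled library profile subtracted, 2.06 with ventricular and 1.53 with atrial cardiomyocytes only. The mitochondrial ratio of 9.69 became 3.71 among barcodes under 20% mitochondrial counts, below the nuclear summed ratio of 4.22. That limit itself bounds the share, and the 2 ratios rest on different totals. The mitochondrial ratio was 17.4 with the scaled library profile subtracted, 10.8 with ventricular and 5.97 with atrial cells only. The Cox6a2 share of 74.0% was 74.2% as a mean over cells, 73.7% under 20% mitochondrial counts, 74.0% with at least 1000 genes, 74.1% with doubled marker thresholds, 73.8% in ventricular and 75.1% in atrial cells. The Cox8b share of 43.5% was 36.7% under 20% mitochondrial counts and 38.0% in atrial cells. The cause was not tested.

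With either technical replicate left out, the count was 79 or 83, the median log2 ratio 1.91 to 1.98 and the mitochondrial ratio 9.31 to 10.1. The Cox6a2 share was then 73.99% to 74.04%, Cox7a1 25.0% to 27.5% and Cox8b 41.1% to 45.6%. For the single nuclear OXPHOS genes tested against fibroblasts, named or not, 828 values moved by no more than the spread between technical replicates and 536 by more. The settings by chamber and the removal of shared barcodes were chosen after seeing the data. No paired analysis was possible because there is 1 group and no test between samples. With 1 biological sample, differences between animals cannot be seen, and classes of few cells limit genes with few counts.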
